A study of Mus musculus with 6 samples.

Results

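The CXC chemokine genes Cxcl1, Cxcl2, Cxcl3, Cxcl10 and Cxcl16 were followed in RAW 264.7 cells, a mouse macrophage line that can be driven to become osteoclasts, the cells that resorb bone. These 5 genes were picked by symbol from the 23282 gene entries measured, and each symbol matched 1 entry. All 6 samples were RAW 264.7 cells at day 5 of osteoclast differentiation. Of these, 3 were labelled control and 3 were labelled CPN in a series on the 60 kDa chaperonin, and the comparison asked how CPN cells differed from controls at that stage. The source, dose and timing of the chaperonin, what the controls received and how differentiation was induced are not given in the labels. Whether the 3 samples of a group were grown apart is not stated, so each p-value speaks for the spread among these 6 samples, and that spread may be technical. RNA was read by QuantSeq, which sequences the 3′ ends of transcripts, so a count stands for transcript ends and not for transcript length.

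Chemokines are small secreted proteins that direct the movement of leukocytes, and CXC chemokines have 1 residue between the first 2 of their conserved cysteines. CXCL1, CXCL2 and CXCL3 attract neutrophils through the receptor CXCR2, and their genes are classical early targets of NF-kB in stimulated macrophages, with messages that carry AU-rich decay signals. CXCL10 attracts activated T cells through CXCR3 and is induced by interferons together with NF-kB. CXCL16 differs in form, since it is made as a membrane protein whose chemokine domain can be shed by the protease ADAM10, and it binds CXCR6. CXCL2 and its relatives are also known as products of macrophages and osteoclast precursors in inflamed bone.

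The stretches just before the transcript starts are shown because they show what Cxcl1, Cxcl2 and Cxcl3 share and where Cxcl10 departs from them. They come from RefSeq (GRCm38.p6) and hold the 250 bases before each start, 5′ to 3′ on the strand of the gene. The windows are chr5:90890995-90891244 for Cxcl1, chr5:90903649-90903898 for Cxcl2 and chr5:90785851-90786100 for Cxcl3, all on the plus strand, and chr5:92348890-92349139 on the minus strand for Cxcl10. Cxcl16 had no promoter entry in the table used. Capitals mark matches, on either strand and with overlapping matches merged, to an NF-kB pattern (GGG, any 3 bases, TTCC) and an interferon-response pattern (GAAA, any 2 bases, GAAA).
Cxcl1: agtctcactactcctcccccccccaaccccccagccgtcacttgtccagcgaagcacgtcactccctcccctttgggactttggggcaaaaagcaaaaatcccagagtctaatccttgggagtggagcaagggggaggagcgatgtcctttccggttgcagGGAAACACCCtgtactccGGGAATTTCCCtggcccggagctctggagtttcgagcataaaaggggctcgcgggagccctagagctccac
Cxcl2: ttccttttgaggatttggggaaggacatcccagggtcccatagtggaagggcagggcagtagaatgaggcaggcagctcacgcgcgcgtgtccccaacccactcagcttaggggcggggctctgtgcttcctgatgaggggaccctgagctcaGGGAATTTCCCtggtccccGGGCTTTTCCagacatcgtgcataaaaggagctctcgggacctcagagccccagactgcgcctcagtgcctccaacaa
Cxcl3: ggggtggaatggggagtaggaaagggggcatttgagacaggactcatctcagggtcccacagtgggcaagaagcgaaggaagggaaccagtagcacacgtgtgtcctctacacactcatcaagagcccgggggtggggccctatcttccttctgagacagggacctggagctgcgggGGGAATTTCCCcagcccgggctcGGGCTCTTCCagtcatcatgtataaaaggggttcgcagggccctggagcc
Cxcl10: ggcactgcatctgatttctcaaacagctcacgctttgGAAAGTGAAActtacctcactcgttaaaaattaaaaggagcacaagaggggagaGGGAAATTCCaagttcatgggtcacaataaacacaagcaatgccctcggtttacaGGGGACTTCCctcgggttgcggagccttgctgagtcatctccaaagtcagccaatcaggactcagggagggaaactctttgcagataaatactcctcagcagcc

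The longest run of bases common to the windows of Cxcl1, Cxcl2 and Cxcl3 was GGGAATTTCCC, 11 bases that match the NF-kB pattern on both strands. It lay 71 to 61 bases before the start of Cxcl1, 97 to 87 before Cxcl2 and 73 to 63 before Cxcl3. Among 32851 promoter windows of this length, 14 (0.0426%) held that run on either strand, and 4.65% held the NF-kB pattern. A further match to the pattern, apart from the run, was present in Cxcl1 (GGAAACACCC, 89 to 80 bases before the start, on the minus strand), in Cxcl2 (GGGCTTTTCC, 78 to 69) and in Cxcl3 (GGGCTCTTCC, 50 to 41). The Cxcl10 window held 2 matches to the NF-kB pattern, GGGAAATTCC (159 to 150) and GGGGACTTCC (104 to 95). It was the window among these 4 with a match to the interferon-response pattern (GAAAGTGAAA, 213 to 204), which 2.98% of all windows held, and with the AP-1 pattern TGANTCA (74 to 68), which 6.75% of all windows held and which is not in capitals. These are matches of letters and not measured binding.

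**Figure D1:**
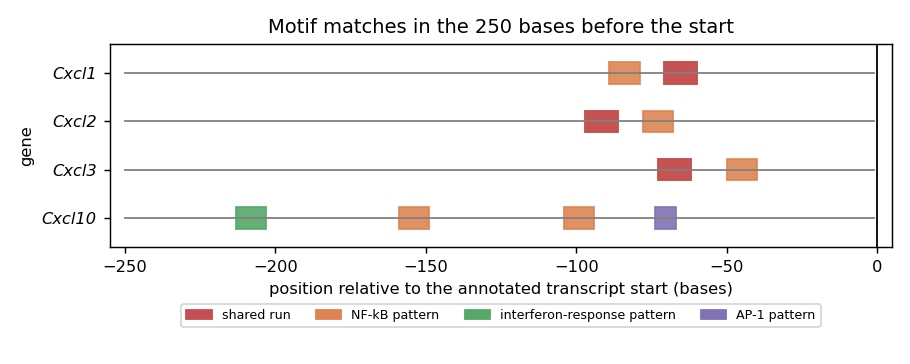
Map of motif matches in the 250 bases before the annotated start of 4 genes; the horizontal axis is the position relative to the start in bases and each block is 1 match. Cxcl1, Cxcl2 and Cxcl3 each carry the shared 11-base run (red, over the NF-kB matches it contains) within 97 bases of the start, and Cxcl10 carries 2 NF-kB matches with 1 interferon-response and 1 AP-1 match.

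Libraries held 7957228 to 9713938 counts. Levels are given as CPM, the count per 1000000 of the TMM-scaled library size, and 3 counts, the floor used for a gene listed at 0, equal 0.294 to 0.393 CPM. Over 11092 genes, the quasi-likelihood test of edgeR called 1554 (14%) at a Benjamini-Hochberg adjusted p of 0.05, of which 845 were higher and 709 lower. When libraries were scaled by their totals without TMM, these numbers were 690 and 914, and the median log2 fold change went from -0.01 to -0.13. Zeros were common at low levels: of 707 genes averaging 6 to 12 counts, 14% to 41.2% were at 0 in a given library, against 0.0538% under Poisson sampling. The average was taken over both groups, so genes absent from a whole group add to these zeros. The share also differed within a group, at 14% in CPN 1 and 41.2% in CPN 2. Single low values such as those of Cxcl10 therefore carry more than counting error.

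Cxcl2 and Cxcl3 rose in CPN cells, Cxcl16 did not pass the test, Cxcl10 was too low to test and Cxcl1 was listed at 0 in all 6 libraries. Thus 3 of the 5 genes were tested and 2 of these passed, both higher, where 7.62% of all tested genes passed as higher. Cxcl3, listed at 0 in the controls, met the low-count filter through its CPN counts alone and could only be called higher. The 2 of 3 can therefore not be weighed against that share. The fold of Cxcl2 was 253.5, while Cxcl16 differed 1.24-fold, lower in CPN, which is within the spread of its samples. That of Cxcl3 was at least 22.9 against a floor of 3 counts per control library, a bound that covers counting error only.

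Cxcl2 (ENSMUSG00000058427.10, chromosome 5, 90903899 to 90905938, plus strand) encodes the neutrophil attractant also called MIP-2. It had 14, 81 and 86 counts in control 1, 2 and 3 and 20125, 13332 and 9045 counts in CPN 1, 2 and 3. All 3 CPN libraries lay far above all 3 controls, a separation without overlap that 16.9% of tested genes showed in this direction. In scaled units these are 1.37, 9.70 and 10.1 CPM against 2415, 1746 and 1122 CPM. The log2 fold change was 7.99 ± 0.58 (SE, n = 3 per group, edgeR adjusted p = 4.35e-06). Among the 703 genes that passed as higher and had at least 10 counts in every library, Cxcl2 had the largest fitted fold change, and the next in that order, the gene model Gm4070, had a log2 fold change of 5.17. Genes near 0 in control are outside this ranking, and some of them had larger fitted values. These include Lcn2 at 13.37, S100a8 at 8.84 and Slpi at 8.56 on the log2 scale. Control 1 stood apart from the other controls at 14 counts, and without it the log2 fold change was 7.48 (edgeR adjusted p = 2.51e-07). Over all 16 other settings the value lay between 7.48 and 8.47 and the call held.

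**Figure D2:**
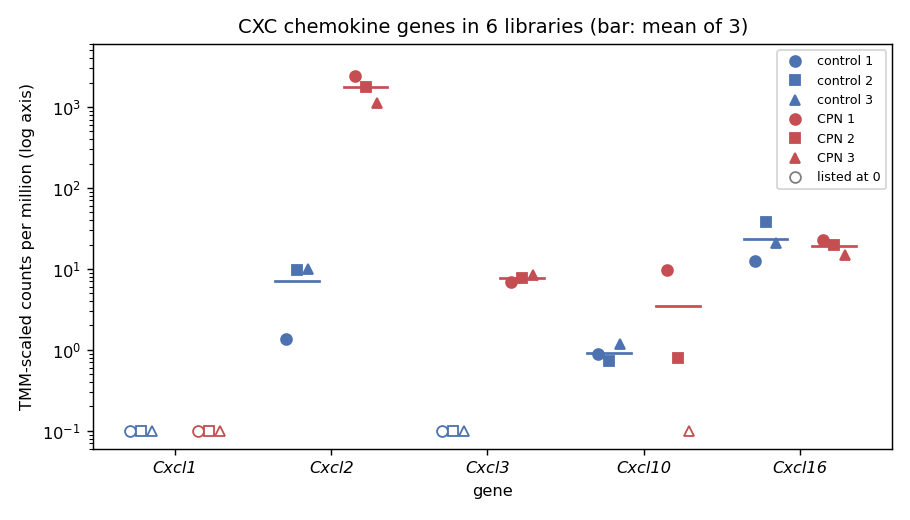
TMM-scaled CPM of the 5 CXC chemokine genes on a log axis, with 1 point per library, a bar at the mean of 3 libraries and open symbols at the bottom for libraries listed at 0. Cxcl2 lies between 1122 and 2415 CPM in CPN and between 1.37 and 10.1 CPM in control, Cxcl3 is present in the CPN libraries alone, and the groups overlap for Cxcl10 and Cxcl16.

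Cxcl3 (ENSMUSG00000029379.10, chromosome 5, 90786101 to 90788093, plus strand), a close relative of Cxcl2 that also acts on CXCR2, was listed at 0 in the 3 control libraries and had 57, 59 and 68 counts in CPN 1, 2 and 3. The CPN values were even, at 7.67 ± 0.80 CPM (SD, n = 3), and none overlapped the controls. Against the floor of 3 counts per control library, Cxcl3 was at least 22.9-fold higher in CPN (edgeR adjusted p = 0.00172, and up to 0.0397 over the other settings). This bound covers counting error only, and given the excess of zeros at low levels the true fold may lie below it. Cxcl3 was highest in CPN 3, the CPN library with the fewest Cxcl2 counts, and lowest in CPN 1, the one with the most. The mRNAs of Cxcl2 and Cxcl3 share 61 stretches of 50 bases, so some reads could be given to either gene. The shared part lies 850 to 960 bases from the 3′ end of the Cxcl3 mRNA and 939 to 1049 bases from that of Cxcl2, and none of it is in a 3′ UTR, where 3′ end reads are expected to fall. How the authors treated reads with more than 1 alignment is not given in the sources used here, and the part of such reads in the Cxcl3 counts was not tested. At the CPN ratio of Cxcl3 to Cxcl2 counts, 184 to 42502, the Cxcl2 counts of the controls would correspond to 0.0606, 0.351 and 0.372 counts of Cxcl3. The zeros of the controls therefore do not show whether Cxcl3 rose by more or less than Cxcl2.

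Cxcl1 (ENSMUSG00000029380.11, chromosome 5, 90891245 to 90893121, plus strand), also called KC, was listed at 0 in every library of both groups. A library at 0 allows up to 3 counts, which is at most 0.393 CPM in any library, and counting error alone enters this limit, so with the excess of zeros the true level may lie above it. Its gene ends 10.8 kb before the start of Cxcl2, its promoter window carries the same 11-base run as those of Cxcl2 and Cxcl3, and its mRNA shares no stretch of 50 bases with another gene's transcript. No fold can be given for Cxcl1.

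The locus that holds Cxcl1, Cxcl2 and Cxcl3 was measured across 10 genes within 200 kb of Cxcl2. In chromosomal order these were Cxcl5, Ppbp, Pf4, Cxcl3, Cxcl15, Cxcl1, Cxcl2, Mthfd2l, Epgn and Ereg. Cxcl5, Ppbp and Ereg were listed at 0 in all 6 libraries, as was Cxcl1. Pf4, the platelet factor 4 gene at -131.5 kb from the start of Cxcl2, had 5, 0 and 8 counts in control and 24, 22 and 47 in CPN. Its CPN values lay above all controls, but the difference did not pass (log2 fold change 2.98 ± 1.25, edgeR adjusted p = 0.144). Mthfd2l, which encodes a mitochondrial folate enzyme 27.0 kb beyond the start of Cxcl2, had 18, 45 and 26 counts in control and 35, 16 and 5 in CPN, so that its groups overlapped. Cxcl15 had counts in control 3 (5) and CPN 3 (13) only. High counts at this locus were thus limited, among these 10 genes, to Cxcl2.

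**Figure D3:**
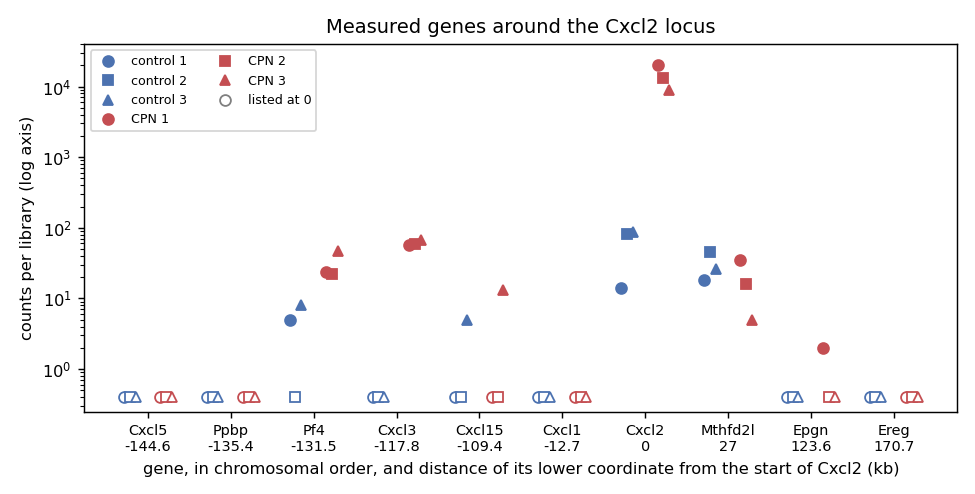
Counts per library, on a log axis with open symbols for 0, of the 10 measured genes within 200 kb of Cxcl2, in chromosomal order with the distance in kb from the start of Cxcl2. Cxcl2 in CPN stands at 9045 to 20125 counts, Cxcl3 and Pf4 in CPN at 22 to 68, and 4 genes are at 0 in every library.

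Cxcl10 (ENSMUSG00000034855.13, chromosome 5, 92346638 to 92348889, minus strand), the interferon-induced ligand of CXCR3, had 9, 6 and 10 counts in control 1, 2 and 3 and 81, 6 and 0 counts in CPN 1, 2 and 3. The 81 counts of CPN 1 stood alone, and CPN 2 lay within the range of the controls and CPN 3 below it. The mean was 3.50 ± 5.40 CPM in CPN and 0.923 ± 0.228 CPM in control (SD, n = 3), and an exact two-sided permutation test on log2(CPM + 1) gave p = 0.9, where 0.1 is the smallest value that 3 against 3 allows. Cxcl10 fell below the low-count filter, and with no filter its log2 fold change was 1.91 ± 1.41 (edgeR adjusted p = 0.451). Without CPN 1 the CPN mean was below the control mean, by -0.53 CPM. CPN 1 was also the library with the fewest zeros among low genes (14%), and the part of this in the Cxcl10 value was not tested. Cxcl10 lies wholly within Art3 on the other strand, and Art3 had 29 counts over the 6 libraries, of which 1 was in CPN 1. The neighbouring CXCR3 ligand genes were lower still, with Cxcl9 listed at 0 in every library and Cxcl11 at 2 counts or fewer.

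Cxcl16 (ENSMUSG00000018920.11, chromosome 11, 70454389 to 70459984, minus strand), the membrane-anchored member, had 126, 313 and 181 counts in control 1, 2 and 3 and 189, 152 and 119 counts in CPN 1, 2 and 3. Its groups overlapped, with control 2 the highest and control 1 the lowest in CPM. The level was 23.7 ± 12.8 CPM in control and 19.1 ± 4.02 CPM in CPN (SD, n = 3), and the log2 fold change of -0.31 ± 0.40 did not pass (SE, edgeR adjusted p = 0.697). Without control 2 the sign turned (log2 fold change 0.21 and edgeR adjusted p = 0.792), and over all settings the value lay between -0.62 and 0.21. The first 552 bases of Cxcl16 in the annotation overlap Zmynd15 on the other strand, and Zmynd15 had 124 counts over the 6 libraries, 78 of them in control 2. Counting by strand is not stated, so reads from these bases may belong to either gene. The bases lie at the 5′ ends of both genes, away from the 3′ ends where reads are expected to fall.

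Cxcl2 and Cxcl16 were the one pair of members with at least 10 counts in every library, so their ratio could be compared free of any scaling between libraries. The log2 ratio of Cxcl2 to Cxcl16 counts was -3.17, -1.95 and -1.07 in control 1, 2 and 3 and 6.73, 6.45 and 6.25 in CPN 1, 2 and 3. It rose by 8.54 from a mean of -2.06 ± 1.05 to 6.48 ± 0.24 (SD, n = 3), and the groups were far apart. The exact two-sided permutation p was 0.1 for this 1 pair, the smallest that 3 against 3 allows, so the design cannot take this test past 0.05. The CPN spread of the ratio was smaller than that of the controls.

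The messages also differ in AU-rich elements, which speed decay when bound by the protein of Zfp36. In the GENCODE M21 transcripts linked to RefSeq mRNAs, the 3′ UTR of Cxcl2 held 11 ATTTA pentamers in 734 bases and 4 matches to the nonamer TTATTTATT, and 0.183% of 19178 genes had as many nonamers. The 3′ UTR of Cxcl1 held 7 pentamers and 2 nonamers, and that of Cxcl3 held 5 pentamers and 1 nonamer. Cxcl10 and Cxcl16 held 2 pentamers each and no nonamer, against a median of 1 pentamer over all genes. Cxcl1, which was listed at 0 in every library and could not be tested, has more of these elements than Cxcl3. Whether the elements bear on which genes rose was not tested.

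Of the full list of 15 CXC ligand genes, 6 were listed at 0 in all libraries (Cxcl1, Cxcl5, Ppbp, Cxcl9, Cxcl12 and Cxcl13) and 5 had enough counts to test. Cxcl2 and Cxcl3 rose, while Pf4, Cxcl14 and Cxcl16 did not pass. Cxcl14, a ligand of epithelia and other tissues, had 2.11 ± 1.09 CPM in control and 2.23 ± 1.34 CPM in CPN (edgeR adjusted p = 0.979). Cxcl17 had 15 counts in control 2 and 1 in control 3 and was otherwise at 0. Summed over the 15 genes, the level was 18.3 to 51.9 CPM in the control libraries and 1156 to 2460 CPM in the CPN libraries, of which Cxcl2 made up nearly all in CPN.

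Among 8 CXC receptor genes, 4 were tested and 1 passed, lower in CPN, beside 6.39% of all tested genes that were lower. Cxcr3, the receptor for CXCL10, had 289, 71 and 152 counts in control 1, 2 and 3 and 38, 20 and 42 in CPN. All its CPN values lay below all controls, as for 15.7% of tested genes, and it fell by 2.14 ± 0.53 on the log2 scale (SE, edgeR adjusted p = 0.0176). That call was lost without control 1 (edgeR adjusted p = 0.125), control 3 (0.0594), CPN 1 (0.0571) or CPN 2 (0.0771), without control 3 and CPN 1 together (0.167), in a test against a fold of 1.5 (0.0503) and with limma-voom (0.0603). Cxcr2, the receptor for CXCL2 and CXCL3, had 26, 14 and 11 counts in control and 41, 34 and 29 in CPN, which did not overlap but did not pass (log2 fold change 1.22 ± 0.86, edgeR adjusted p = 0.417). Cxcr4 (edgeR adjusted p = 0.659) and Cxcr5 (0.187) did not pass either. Cxcr5 overlaps Bcl9l by 110 bases at the 3′ ends of both genes, where 3′ end reads are expected to fall. Bcl9l had 901 counts over the 6 libraries against 254 for Cxcr5, and did not pass (log2 fold change -1.08, edgeR adjusted p = 0.0784). The part of reads from the shared bases in the Cxcr5 counts was not tested. Cxcr1, Ackr1 and Ackr3 were listed at 0 in every library, and Cxcr6, the receptor for CXCL16, had 2 counts in CPN 1.

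A list of proteases that trim or shed CXC chemokines, with the ADAM17 carrier gene Rhbdf2 added, gave 2 higher of 6 tested. Its median log2 fold change was 0.62, and 7.62% of all tested genes were higher. The 2 were Rhbdf2 and the protease gene Mmp9, and no other protease of the list passed. Mmp9, a matrix metalloproteinase that can clip CXC chemokines, had 953, 548 and 872 counts in control and 1971, 1659 and 2557 in CPN. Its groups did not overlap and it rose 2.95-fold (edgeR adjusted p = 0.000424). Rhbdf2, which encodes the iRhom2 protein that carries ADAM17 to the cell surface, went from 10.7 ± 5.43 to 28.8 ± 1.77 CPM (SD, n = 3), a rise of 2.69-fold (edgeR adjusted p = 0.0352). The call of Rhbdf2 was lost without control 1, control 3 or any single CPN library, with edgeR adjusted p between 0.0757 and 0.102, and also in a test against a fold of 1.5 (0.13) and without control 3 and CPN 1 together (0.196). Adam10, the main sheddase of CXCL16, had 965, 705 and 736 counts in control and 592, 689 and 574 in CPN (log2 fold change -0.19, edgeR adjusted p = 0.606). Adam17 (edgeR adjusted p = 0.41) and Mmp12 (0.532) did not pass, and Dpp4, whose product trims CXCL10, had 5 counts, all in CPN 3.

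Of 14 NF-kB regulators, all tested, 4 were higher, where 7.62% of all tested genes were, with a median log2 fold change over the list of 0.61 against -0.01 over all tested genes. All 4 encode proteins of the IkB type, while Nfkbie, a further gene of this type on the list, did not pass (log2 fold change 0.15, edgeR adjusted p = 0.877). Nfkbiz, whose protein IkB-zeta acts in the nucleus on a subset of NF-kB targets, rose from 9.43 ± 0.83 to 77.0 ± 12.1 CPM (SD, n = 3, edgeR adjusted p = 9.83e-06). Nfkbib, encoding the cytoplasmic inhibitor IkB-beta, had 719, 888 and 789 counts in control and 4834, 2933 and 1591 in CPN 1, 2 and 3, and rose 4.32-fold (edgeR adjusted p = 0.000737). Its CPN libraries fall in the same order as for Cxcl2. Nfkbib overlaps Sirt2, which had 4012 counts over the 6 libraries against 11754 for Nfkbib and was itself higher in CPN (edgeR adjusted p = 0.00509). Reads from the 778 bases common to both may belong to either. These bases lie at the 5′ ends of both genes, away from the 3′ ends where reads are expected to fall. Nfkbib also overlaps Ccer2, by 718 bases at the 3′ ends of both genes, where such reads are expected. No counts were listed for Ccer2 in any library. The part of reads from these shared bases in the Nfkbib counts was not tested. Bcl3 rose 2.63-fold (edgeR adjusted p = 0.00478) and Nfkbia, encoding the feedback inhibitor IkB-alpha, rose 1.70-fold (0.00556), and the calls of both were lost without control 3 and CPN 1 together (edgeR adjusted p = 0.0975 for each), as was that of Nfkbia in a test against a fold of 1.5 (0.313). The subunit genes did not pass in the fit reported, with edgeR adjusted p of 0.92 for Rela, 0.212 for Nfkb1 and 0.0605 for Relb. The number of higher genes on the list was 5 with DESeq2, with limma-voom, with no low-count filter and without control 2. It was 3 in a test against a fold of 1.5 and 2 without control 3 and CPN 1 together.

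The promoter patterns were also counted among tested genes at large. The 11-base run occurred in 4 tested genes, of which Cxcl2 and Cxcl3, the genes it was read from, were higher, while Il16 (edgeR adjusted p = 0.243) and Zfp84 (0.576) did not pass. Of 517 tested genes with the NF-kB pattern 8.12% were higher, next to 7.57% of the 8482 tested genes with a promoter entry. The share was 16.9% of 266 genes with the interferon-response pattern and 12.2% of 441 with the AP-1 pattern. Lower in CPN were 31, 18 and 39 genes with these 3 patterns in turn, and 533 of the 8482.

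In the interferon-linked list, which holds regulators of Cxcl10, 6 of 17 tested genes were higher and 1 was lower, beside 7.62% higher and 6.39% lower among all tested genes, and the median log2 fold change was 0.73. The lower gene was Irf5 (log2 fold change -0.76, edgeR adjusted p = 0.0181), whose call was lost without control 3, CPN 2 or CPN 3 and in a test against a fold of 1.5. Irf5 overlaps Tnpo3 by 1045 bases at the 3′ ends of both genes, where 3′ end reads are expected to fall. Tnpo3 had 7548 counts over the 6 libraries against 5885 for Irf5, and did not pass (log2 fold change -0.42, edgeR adjusted p = 0.171). The part of reads from the shared bases in the fall of Irf5 was not tested. Without control 3 and CPN 1 together the list had 3 calls, all higher. Irf7, a transcription factor that amplifies interferon signals, rose 11.8-fold from 5.12 ± 2.16 to 60.7 ± 9.86 CPM (SD, n = 3, edgeR adjusted p = 3.61e-05). It overlaps Phrf1 by 45 bases, also at the 3′ ends of both genes. Phrf1 had 3887 counts over the 6 libraries against 1591 for Irf7, and did not pass (log2 fold change -0.30, edgeR adjusted p = 0.463). The part of reads from these shared bases in the rise of Irf7 was not tested. Ikbke, encoding a kinase that activates interferon regulatory factors, rose 10.7-fold (edgeR adjusted p = 0.000711), and Usp18, an interferon-induced feedback inhibitor, rose 6.88-fold (0.00306). Ifnar2, a subunit of the interferon receptor, rose 1.92-fold (edgeR adjusted p = 0.00463), and that call was lost without control 3 and CPN 1 together (0.0531) and in a test against a fold of 1.5 (0.12). These genes rose in the same libraries in which CPN 2 and CPN 3 held 6 and 0 counts of Cxcl10. Ifnb1 itself had 1 count, in CPN 1.

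Of 12 regulators of message stability, Zfp36, encoding tristetraprolin, passed as higher and 11 did not pass, with a median log2 fold change of -0.02. That 1 call is near the 7.62% of all tested genes that were higher. Zfp36 had 170, 216 and 240 counts in control and 528, 427 and 447 in CPN, a rise of 2.48-fold (edgeR adjusted p = 0.00442, and 0.0701 without control 3 and CPN 1 together). Elavl1, whose product HuR binds the same elements and stabilises messages, had 1056, 645 and 1020 counts in control and 704, 598 and 821 in CPN (log2 fold change -0.18, edgeR adjusted p = 0.66). Zfp36l1 (edgeR adjusted p = 0.31) and Hnrnpd (0.68) did not pass.

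Secreted chemokines are held on cell surfaces by heparan sulfate and stored with serglycin, and in this list of 11 genes 10 were tested, with 1 higher and 4 lower and a median log2 fold change of -0.56. Among all tested genes 7.62% were higher and 6.39% lower. Srgn, the serglycin gene, rose from 200 ± 84.5 to 676 ± 75.7 CPM (SD, n = 3, edgeR adjusted p = 0.000634). Ndst1, an enzyme that sulfates the heparan chain, had 348, 221 and 272 counts in control and 66, 68 and 47 in CPN. It fell by 2.03 on the log2 scale (edgeR adjusted p = 0.00142, and 0.055 without control 3 and CPN 1 together). Ndst1 overlaps the ribosomal protein gene Rps14, which had 128703 counts in all. The overlap lies at the 5′ ends of both genes, away from the 3′ ends where reads are expected to fall. Ndst2, Ext1 and Hs6st1, enzymes of the same pathway, fell by 0.91, 0.96 and 0.75 on the log2 scale (edgeR adjusted p = 0.0346, 0.0295 and 0.0322). The number of lower genes was 1 without control 1, control 3 or CPN 2, and 2 without CPN 1 or CPN 3 or with the replicate number as a block. It was also 1 in a test against a fold of 1.5 and without control 3 and CPN 1 together. Ext1 lost its call in both of these (edgeR adjusted p = 0.239 and 0.238), as did Hs6st1 (0.481 and 0.274). Among single libraries left out, Ext1 kept its call without control 2 alone and Hs6st1 without CPN 3 alone.

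**Figure D4:**
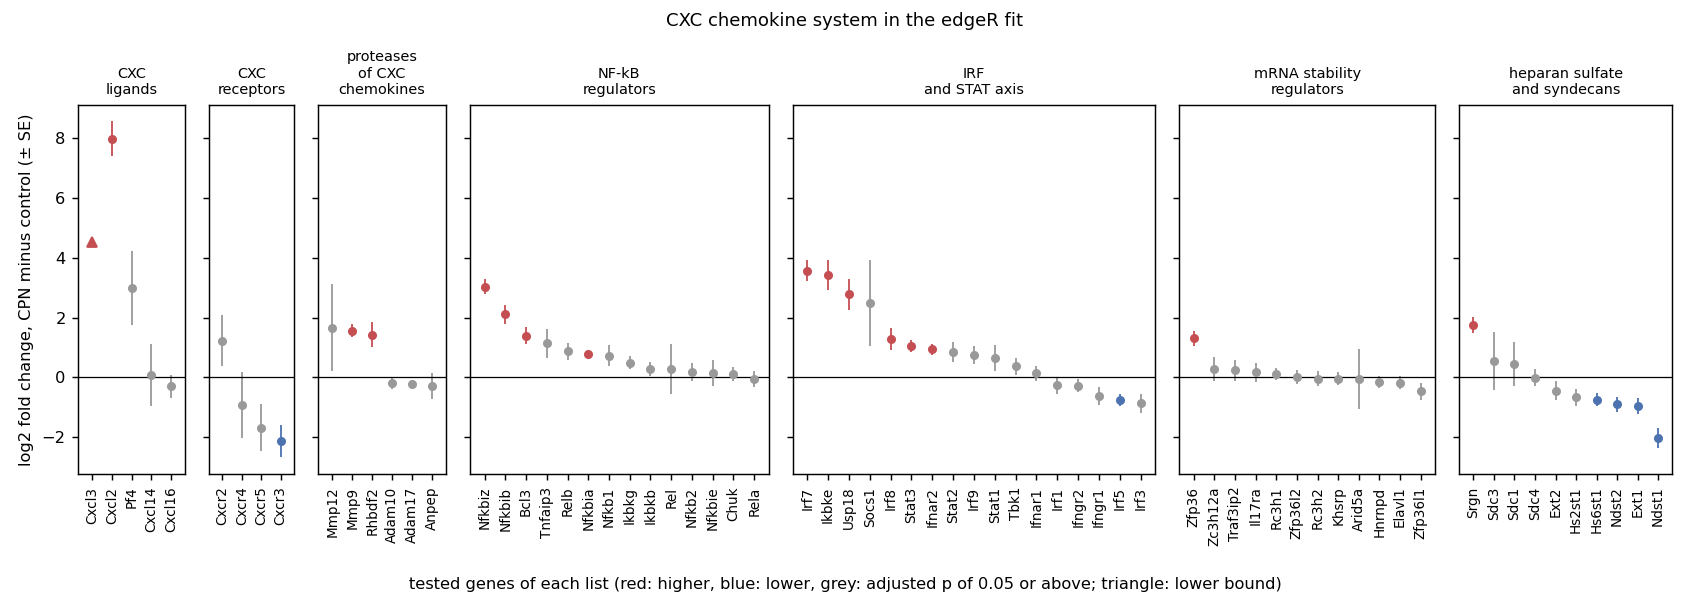
Log2 fold change, CPN minus control, with its SE for the tested genes of 7 lists around the CXC chemokines; red points passed as higher, blue points as lower and grey points did not pass, and the triangle for Cxcl3 is its lower bound of 4.52. Cxcl2 at 7.99 lies above every other fitted value drawn here, of which the next is 3.56 for Irf7. The bound does not show whether Cxcl3 rose by more or less than Cxcl2.

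The genes with the most similar course over the 6 libraries were sought by the root mean square difference of log2(CPM + 1), each gene centred on its own mean. For Cxcl2 these were Irg1, the enzyme that makes itaconate (0.656 log2 units), Slpi, a secreted protease inhibitor (0.839), and Lcn2, the iron-scavenging lipocalin (1.27). Irg1 had 0, 2.64 and 3.62 CPM in control 1, 2 and 3 and 435, 220 and 228 CPM in CPN, and like Cxcl2 it was lowest in control 1 and highest in CPN 1. For Cxcl3 they were the interferon-stimulated genes Ifi44 (0.178) and Ifi44l (0.180) and then Nfkbiz (0.190). For Cxcl16 they were Josd2 (0.101), Ppp1r13l (0.109) and Zfp189 (0.123), none of which passed the test. The nearest course to Cxcl10 was that of Mylk2 (0.349), with 31.4 CPM in CPN 1 and 3.23 CPM in CPN 3, followed by Otx1 (0.517) and Tmem98 (0.532). All these distances rest on 6 libraries in 2 groups, and the pseudocount of 1 CPM compresses the change of low genes such as Cxcl3.

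Markers of the labelled and of other cell types were read beside these results. Of the 7 macrophage markers, which summed to 1871 to 2368 CPM in control and 2171 to 2800 CPM in CPN, 6 were tested and 2 were higher in CPN. These were Adgre1, encoding F4/80 (3.45-fold, edgeR adjusted p = 0.000609), and Itgam, encoding CD11b (3.94-fold, edgeR adjusted p = 5.44e-05). Ptprc, Csf1r, Cd68 and Lyz2 were present in every library and did not pass, and Mrc1 had 6 counts or fewer in each. The 6 tested osteoclast markers, Ctsk and Acp5 among them, were all lower in CPN, and their sum over 7 genes was 3165 to 3466 CPM in control and 735 to 1195 CPM in CPN. In bulk RNA, fewer osteoclasts and less osteoclast RNA per cell cannot be told apart. Neutrophils are a source of CXCL2, and the neutrophil list summed to 0 to 0.117 CPM in control and 18.0 to 34.6 CPM in CPN. That sum, over the 7 of 8 listed genes with an entry, was mainly S100a8, with 156, 264 and 144 counts in CPN and 1 in control 3, whereas Elane, Camp, Ngp and Retnlg were at 0 in all 6 libraries and S100a9 had 1 count. The stromal list summed to 0 to 6.23 CPM in control and 12.2 to 20.4 CPM in CPN, mainly through Dcn and Lum, which were at 0 in control and had 94, 59 and 98 counts (Dcn) and 11, 63 and 0 counts (Lum) in CPN. Endothelial, lymphocyte and epithelial markers summed to at most 1.75 CPM in any library. The part of these markers in the rise of Cxcl2 and Cxcl3 was not tested.

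**Figure D5:**
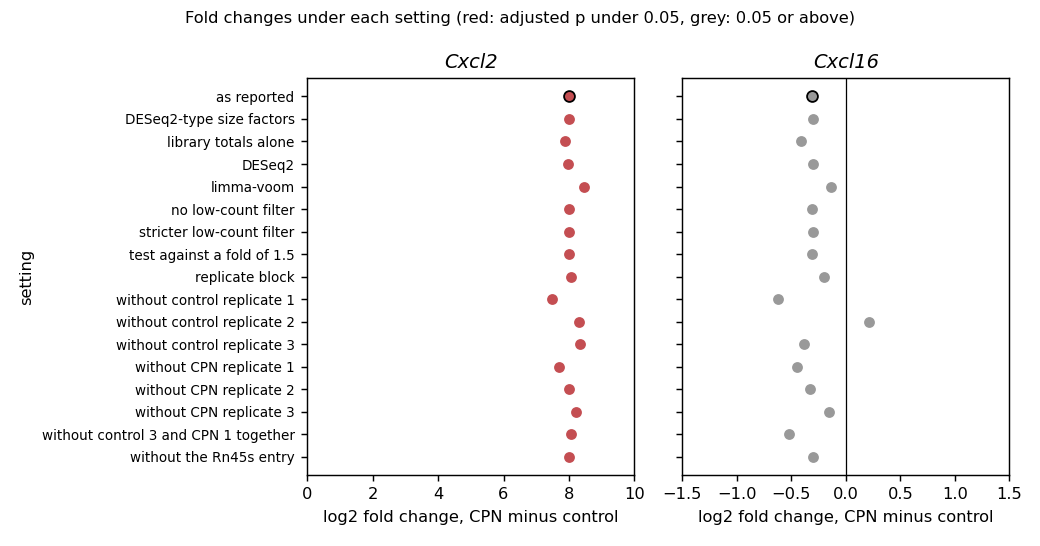
Log2 fold change of Cxcl2 and Cxcl16, CPN minus control, under the setting reported (outlined) and 16 others listed on the vertical axis; red points passed an adjusted p of 0.05 and grey points did not. Cxcl2 stays between 7.48 and 8.47, while Cxcl16 lies between -0.62 and 0.21 and is above 0 without control 2.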

How the data were processed

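The authors deposited whole-number counts per gene, 1 table for each of 6 samples. The submitters' processing notes name the build mm10 and the tools Bowtie2 and bedtools; versions, annotation, strand and multiple alignments are not stated. Per the labels' protocols, QuantSeq libraries were made from TRIzol RNA. All 23282 entries (79 sharing a symbol, kept apart) entered R 4.3.3 and edgeR 4.0.16, with TMM, filterByExpr (minimum count 10, minimum total 15), a quasi-likelihood test of CPN against control, and Benjamini-Hochberg adjustment over 11092 genes. The SE is the absolute log2 fold change divided by the square root of F. The code was tested on simulated data. Coordinates come from RefSeq on GRCm38.p6, gene identifiers, overlaps and 3′ UTRs from GENCODE M21 on GRCm38. Replicate libraries differed by more than sampling noise (chi-square per degree of freedom at least 16.1).

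The members and lists were chosen with earlier results of these data known, and the promoter patterns after the promoters were seen. The rule named the members, the other CXC ligands and receptors, up to 4 genes with the smallest p per list and the 3 nearest profiles per member. Adam10, Dpp4, Rela, Nfkb1, Relb, Nfkbie, Irf5, Ifnb1, Ndst2, Gm4070, Il16, Zfp84, the markers, and neighbouring or overlapping genes were named after their values were seen. Cxcl3, at 0 in controls, has a lower bound in place of a fitted fold. Cxcl10, left untested by the filter, has a difference of means and an exact permutation test, which was added for that reason. Fits were repeated with other scalings (RLE size factors, library totals), with DESeq2 1.42.0 and limma-voom (limma 3.58.1), with other filters, a fold threshold of 1.5 and a replicate block, without each library, without control 3 and CPN 1, and without Rn45s, the ribosomal RNA precursor (9.04% to 16.6% of counts).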

Additional observations from a re-analysis of the deposited data

How the results depend on the processing

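The count of 2 CXC chemokine genes higher in CPN was the same under all 16 alternatives, as were the calls of Cxcl2 and Cxcl3. The log2 fold change of Cxcl16 was 0.21 without control 2, between -0.62 and 0.21 over the fits that leave out 1 library, and did not pass under any setting. The difference of Cxcl10 group means, 2.58 CPM with all libraries, ranged from -0.53 (without CPN 1) to 4.38 when 1 library was left out and was -0.40 without control 3 and CPN 1 together, in which the 81 counts of CPN 1 are absent. Over all genes, 845 higher and 709 lower calls became 424 and 273 in a test against a fold of 1.5, 273 and 173 without control 3 and CPN 1 together, and ranged from 525 to 1131 higher and from 359 to 823 lower when 1 library was left out. The higher count was 525 without control 3 and 534 without CPN 2, and the lower count was 415 without control 1, 359 without control 3, 467 without CPN 1 and 381 without CPN 2. With the replicate number as a block, the log2 fold change of Cxcl2 was 8.06 (edgeR adjusted p = 9.05e-05), Cxcl3 kept its call (edgeR adjusted p = 0.0128), Cxcl16 was at -0.20, the mean difference of the log2 ratio of Cxcl2 to Cxcl16 was 8.54 (exact two-sided sign-flip permutation p = 0.25, the smallest 3 pairs allow), and 748 genes were higher and 578 lower. Deviations of same-numbered samples correlated at -0.074, 0.014 and 0.039 over 11092 genes, so the numbers were not taken to pair the samples. For Cxcl1, Cxcl9 and the other genes listed at 0, the floor of 3 counts (at most 0.393 CPM) covers counting error only, and the excess of zeros at low levels means that a gene listed at 0 may lie above it.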
